A study of Mus musculus with 13 samples.

Results

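The comparison described here is between the hearts of 3 mice given sAcvR2B-Fc before doxorubicin and the hearts of 5 mice given doxorubicin alone, over all 10410 genes that passed the detection filter. It addresses what blocking of activin receptor ligands adds to the response to the drug. The 8 arrays were chosen by the sample names of the deposited non-normalized table, out of 13 arrays in the series. The other 5 are hearts of mice injected with PBS and served as a reference. All mice were male C57BL/6 animals aged 8 to 10 weeks, and every agent was injected intraperitoneally. The fusion protein was given 48 hours before doxorubicin, and the hearts were collected 20 hours after doxorubicin or PBS. A group that received the fusion protein without doxorubicin was not analysed here, so what the protein does on its own and what it does in the presence of the drug cannot be told apart. Each array was taken as 1 mouse. The labels do not say whether litters, cages or days were shared, so p-values measure the spread between these samples.

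Activins, myostatin and several bone morphogenetic proteins signal through type II receptors such as ActRIIA and ActRIIB, which recruit type I receptors that phosphorylate SMAD proteins. The phosphorylated SMADs enter the nucleus with SMAD4 and change transcription. The extracellular domain of ActRIIB fused to an antibody Fc part circulates as a decoy that captures these ligands, and it is best known for enlarging skeletal muscle. Doxorubicin is an anthracycline that breaks DNA and is toxic to the heart muscle.

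Total heart RNA was measured as biotinylated cRNA on 1-colour Illumina bead arrays. Values below are log2 normalized signals unless a fold is named, and a difference is the mean of the pre-treated group minus the mean of the doxorubicin group, with its SE from a linear model fitted with limma to all 13 arrays. A gene was called at a limma adjusted p under 0.05 (Benjamini-Hochberg, over all 10410 genes). The 8 arrays had 15989 to 17939 detected probes and median raw signals of 101.5 to 136.3. Of 14 listed cardiomyocyte markers 13 were tested, with a summed linear signal of 205725 to 232764 after doxorubicin and 207119 to 229716 in the pre-treated hearts.

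Limits of the arrays touch every result below. The deposited tables disagree on which array is which mouse: the array differs for 8 of the 13 samples, 6 of them with a change of group. Of the 8 arrays compared here, 4 (pre-treated replicate 1 and doxorubicin replicates 1, 2 and 3) lie in the same group by both tables. Under the names of the second table, the series matrix, 0 genes were called by limma, with 324 at an unadjusted p under 0.05. Signals on the arrays can be read against both sets of names. Cdkn1a, a p53-induced gene whose product p21 arrests the cell cycle, stood at 10.97, 11.13 and 9.92 in the pre-treated hearts and 10.88, 9.66, 10.89, 10.54 and 10.34 after doxorubicin alone, and at 8.59, 7.53, 8.28, 8.28 and 7.16 after PBS. All 8 arrays named as treated by the non-normalized table therefore lay above all 5 named as PBS. Between the treated groups Cdkn1a differed by 0.21 ± 0.36, so it cannot show which treated arrays had the fusion protein. Doxorubicin replicate 5 and pre-treated replicate 3 exchange these groups between the sets of names. Separately, 5 arrays (PBS replicates 4 and 5, doxorubicin replicate 5, and pre-treated replicates 2 and 3) had lower median raw signals (101.5 to 111.4) than the other 8 (113.7 to 136.3) and stood apart on the first principal component of all genes. This low-signal set holds 2 of the 3 pre-treated arrays but 1 of the 5 doxorubicin arrays. Differences were therefore also fitted with this set as a block, and that alternative was chosen after seeing the data.

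Few genes were called between the pre-treated hearts and those given doxorubicin alone, and a gene that was not called is not shown to be unchanged. Of 10410 genes, 9 were called, which is 0.0865% of those tested, 3 higher (0.0288%) and 6 lower (0.0576%). With median scaling in place of quantile normalization, 1 was called higher and 5 lower. The differences of all genes had a median of 0.018, and 53.5% of them were positive. At an unadjusted p under 0.05 there were 1181 genes (11.3%), and the 2 groups did not overlap for 727 genes (6.98%), with the pre-treated arrays above for 435 (4.18%) and below for 292 (2.8%). For all 9 called genes the 3 pre-treated arrays lay outside the range of all 10 other arrays, PBS included. Against PBS, limma called 25 genes (0.24%) after doxorubicin alone and 128 (1.23%) in the pre-treated hearts, and both counts share the PBS arrays. In the plot of all tested genes Vsig4, the Ccl21 copies, Kcne1 and Masp1 lie apart from the rest, while Tmem116, Clec10a and Dipk1b lie close to genes that were not called.

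**Figure D1:**
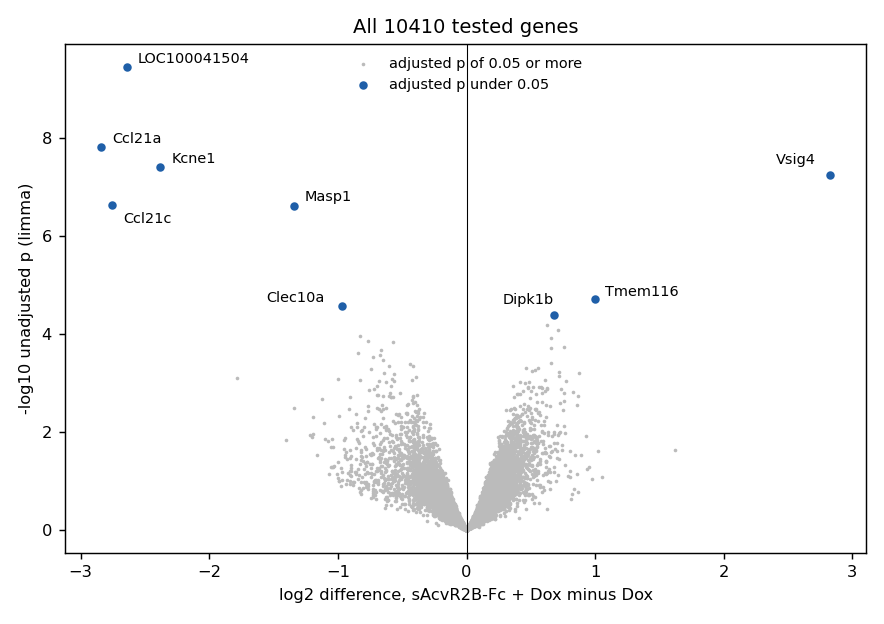
Each point is 1 of 10410 genes; the horizontal axis is the log2 difference between sAcvR2B-Fc plus doxorubicin and doxorubicin alone, and the vertical axis is the unadjusted limma p on a negative log10 scale. The 9 called genes are in blue, and they range from Ccl21a at -2.84 to Vsig4 at 2.83.

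Vsig4, which encodes a complement receptor of resident tissue macrophages that binds C3b, rose the most. Its signal was 8.68, 9.47 and 8.46 in the pre-treated hearts and 6.26, 6.39, 5.93, 6.31 and 5.35 after doxorubicin alone. All pre-treated arrays were above all doxorubicin arrays, and also above the PBS arrays, which read 6.01, 5.33, 5.19, 5.28 and 5.44. The difference was 2.83 ± 0.27 (SE, n = 3 and 5, limma adjusted p = 0.000150), or 7.09-fold. Against PBS, doxorubicin alone stood at 0.60 ± 0.23 (not called, limma adjusted p = 0.305) and the pre-treated hearts at 3.42 ± 0.27 (limma adjusted p = 2.49e-05), and these comparisons share arrays with the first. Under the series matrix names the 3 high arrays fall into 3 different groups, and the difference is -0.06.

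The other genes that rose did so by less. Tmem116, a transmembrane protein gene, read 6.74, 6.97 and 6.23 in the pre-treated hearts and 5.68, 5.65, 5.85, 5.55 and 5.52 after doxorubicin alone. The groups did not overlap, and the difference was 1.00 ± 0.16 (limma adjusted p = 0.0294). It rests on 1 probe of 3, since the other probes differed by 0.08 and 0.33, and it was called in 7 of the 13 fits that leave out 1 array. Dipk1b, which encodes a kinase-like protein of the endoplasmic reticulum, read 7.74, 7.92 and 7.72 in the pre-treated hearts and 6.96, 7.23, 7.08, 7.13 and 7.20 after doxorubicin alone. Its pre-treated arrays were close together above the doxorubicin arrays, with a difference of 0.68 ± 0.11 (limma adjusted p = 0.0482), and its other probe differed by 0.70. With the low-signal set as a block, Dipk1b was no longer called (limma adjusted p = 0.108), while the other 8 genes were, and it was called in 2 of the 13 fits that leave out 1 array.

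Ccl21a fell the most. CCL21 is a chemokine made by lymphatic endothelium and lymph node stroma that guides dendritic cells and T cells through the receptor CCR7, and mice carry several near-identical copies of its gene. The promoter windows of 2 copies are shown because they make the likeness of the copies visible. They are RefSeq sequences of GRCm38.p6 from 250 bases before to 50 bases after the annotated start: Ccl21a on the minus strand at chr4:42773942-42774241 and Ccl21d on the plus strand at chr4:41903363-41903662, in capitals where they differ.
Ccl21a: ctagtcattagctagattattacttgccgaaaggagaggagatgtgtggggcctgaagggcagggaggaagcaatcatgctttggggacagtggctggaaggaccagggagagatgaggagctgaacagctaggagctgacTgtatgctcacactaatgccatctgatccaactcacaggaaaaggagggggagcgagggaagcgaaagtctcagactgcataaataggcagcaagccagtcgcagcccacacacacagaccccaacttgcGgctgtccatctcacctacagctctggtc
Ccl21d: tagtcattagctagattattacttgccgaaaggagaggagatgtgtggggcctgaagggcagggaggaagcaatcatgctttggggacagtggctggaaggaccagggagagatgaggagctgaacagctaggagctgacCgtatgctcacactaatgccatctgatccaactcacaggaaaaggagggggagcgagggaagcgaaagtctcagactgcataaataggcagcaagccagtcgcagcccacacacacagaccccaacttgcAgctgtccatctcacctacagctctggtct
Over 299 aligned bases the windows differ at 2, T142C and G272A, counted from 1 at the 5′ end of the Ccl21a window, an identity of 99.33%.

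Ccl21a read 7.28, 6.05 and 7.34 in the pre-treated hearts and 9.73, 9.98, 9.53, 9.73 and 9.65 after doxorubicin alone. Pre-treated replicate 2 was the lowest, and the highest pre-treated array lay far under the lowest doxorubicin array. The difference was -2.84 ± 0.24 (limma adjusted p = 7.87e-05), or 7.16-fold lower. Doxorubicin alone stood at -0.17 ± 0.21 against PBS, which was not called (limma adjusted p = 0.801), and the pre-treated hearts stood at -3.01 ± 0.24 (limma adjusted p = 2.49e-05). The called genes Ccl21c and LOC100041504 are further copies. Ccl21c read 6.82, 5.31 and 6.89 in the pre-treated hearts and 9.06, 9.38, 8.92, 9.35 and 8.74 after doxorubicin alone, and its second probe differed by -2.52. LOC100041504 read 6.37, 5.88 and 6.25 in the pre-treated hearts and 8.44, 9.00, 8.70, 8.97 and 8.92 after doxorubicin alone. On both, every pre-treated array lay below all doxorubicin arrays, with differences of -2.75 ± 0.29 (limma adjusted p = 0.000433) and -2.64 ± 0.17 (limma adjusted p = 3.77e-06). Probes of near-identical copies can bind each other's RNA, so the 4 probes of these copies cannot be told apart and are not evidence of 3 separate changes.

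Lymphatic endothelial markers other than Ccl21a did not pass the test. Of 10 tested markers of 10 listed, 3 had a positive and 7 a negative difference, with a median of -0.18 beside 0.018 for all genes, and the summed linear signal was 3231 to 3483 after doxorubicin and 2484 to 2695 in the pre-treated hearts, a sum that includes Ccl21a. Mmrn1, an extracellular matrix protein of lymphatic vessels, differed by -0.63 ± 0.27, and Pdpn, the surface glycoprotein podoplanin, by -0.44 ± 0.14. For both, as for Ccl21a, the pre-treated arrays lay below all doxorubicin arrays. Stab1 is a scavenger receptor of sinusoidal and lymphatic endothelium that macrophages also make. It differed the other way, by 0.27 ± 0.10, with the pre-treated arrays above all doxorubicin arrays. Its other probes, detected on all 8 arrays, differed by 0.08 and -0.12. The 11 tested vascular endothelial markers had 4 positive and 7 negative differences and a median of -0.11. Their summed linear signal was 25934 to 30238 after doxorubicin and 21884 to 25338 in the pre-treated hearts. Their mean log2 level per array overlapped, at 10.715 to 10.874 and 10.611 to 10.809. Aqp1, a bright member with a mean level of 12.76, had the most negative difference of the list (-0.72 ± 0.18, not called). The part of vascular endothelium in the lymphatic marker differences was not tested. Vegfc, the growth factor of lymphatic vessels, read 7.20, 7.38 and 6.98 in the pre-treated hearts and 8.14, 8.25, 7.64, 7.97 and 7.75 after doxorubicin alone. Its groups did not overlap either, and the difference of -0.77 ± 0.15 missed the threshold (limma adjusted p = 0.103). In whole-heart RNA, fewer cells of a type and less RNA per cell cannot be told apart.

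Kcne1, an accessory subunit of the channel for the slow delayed rectifier current, fell from levels near those of PBS hearts. Its signal was 5.16, 5.05 and 5.47 in the pre-treated hearts and 7.79, 7.93, 7.18, 7.03 and 8.10 after doxorubicin alone, against 7.65, 7.76, 7.78, 8.08 and 7.68 after PBS. The pre-treated arrays were below every other array, and 1 of the 3 did not pass detection. The difference was -2.38 ± 0.22 (limma adjusted p = 0.000137), or 5.20-fold lower. A second Kcne1 probe differed by -0.02 but was detected on 2 of 5 doxorubicin and 1 of 3 pre-treated arrays.

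Among the 18 tested genes of repolarizing potassium currents, Kcne1 was the single called one. The list had 11 positive and 7 negative differences and a median of 0.083. Kcnd2, a pore subunit of the transient outward current, differed by -0.81 ± 0.27, and the stretch-sensitive background channel gene Kcnk2 by -0.66 ± 0.19. Kcnip2, the accessory subunit of the transient outward channel, stood at 0.66 ± 0.23. None of these passed the test. The Kcnd2 signals were 7.92, 7.03 and 7.80 in the pre-treated hearts and 8.78, 8.55, 8.16, 8.38 and 8.08 after doxorubicin alone, and the pre-treated arrays lay below the others, though the low-signal PBS arrays were also the lowest of their group (9.19, 9.72, 9.56, 8.75 and 8.65). A second Kcnd2 probe, detected on all 8 arrays, differed by 0.41, in the opposite direction.

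Masp1, which encodes a protease that starts the lectin pathway of complement, fell as well. It read 8.03, 8.47 and 8.28 in the pre-treated hearts and 9.82, 9.46, 9.77, 9.53 and 9.45 after doxorubicin alone. The doxorubicin arrays lay above all PBS arrays (8.95, 9.11, 9.35, 8.99 and 8.80), and the pre-treated arrays lay below all of them. The difference was -1.34 ± 0.14 (limma adjusted p = 0.000433), or 2.54-fold lower. Doxorubicin alone stood at 0.56 ± 0.12 against PBS (limma adjusted p = 0.0969), while the pre-treated hearts stood at -0.78 ± 0.14 against PBS (limma adjusted p = 0.0226). A second Masp1 probe differed by -1.18 and was also called (limma adjusted p = 0.0150 over all probes).

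Complement genes other than Vsig4 and Masp1 were not called. The 14 tested members had 9 positive and 5 negative differences and a median of 0.17. C7, a component of the membrane attack complex, differed by 0.45 ± 0.19, with all pre-treated arrays above the doxorubicin arrays. Cd55, which speeds the decay of the enzymes that activate C3, differed by -0.49 ± 0.20.

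Clec10a encodes a galactose-binding lectin of macrophages and dendritic cells. It read 4.55, 4.47 and 4.48 in the pre-treated hearts and 5.58, 5.58, 5.66, 5.52 and 5.00 after doxorubicin alone. The pre-treated arrays were almost equal and below all others, but none of the 3 passed detection, so they give only a bound. The difference of -0.97 ± 0.16 was called (limma adjusted p = 0.0348), and the fall was at least 1.28-fold. It was called in 3 of the 13 fits that leave out 1 array. Mgl2, its close paralog, read 5.69, 6.96 and 6.01 in the pre-treated hearts and 7.24, 7.09, 7.29, 6.99 and 7.50 after doxorubicin alone. The groups did not overlap, yet pre-treated replicate 2 lay near the doxorubicin arrays and the difference of -1.001 ± 0.24 was not called (limma adjusted p = 0.208). Without that array it was -1.37 and was called (limma adjusted p = 0.00884).

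**Figure D2:**
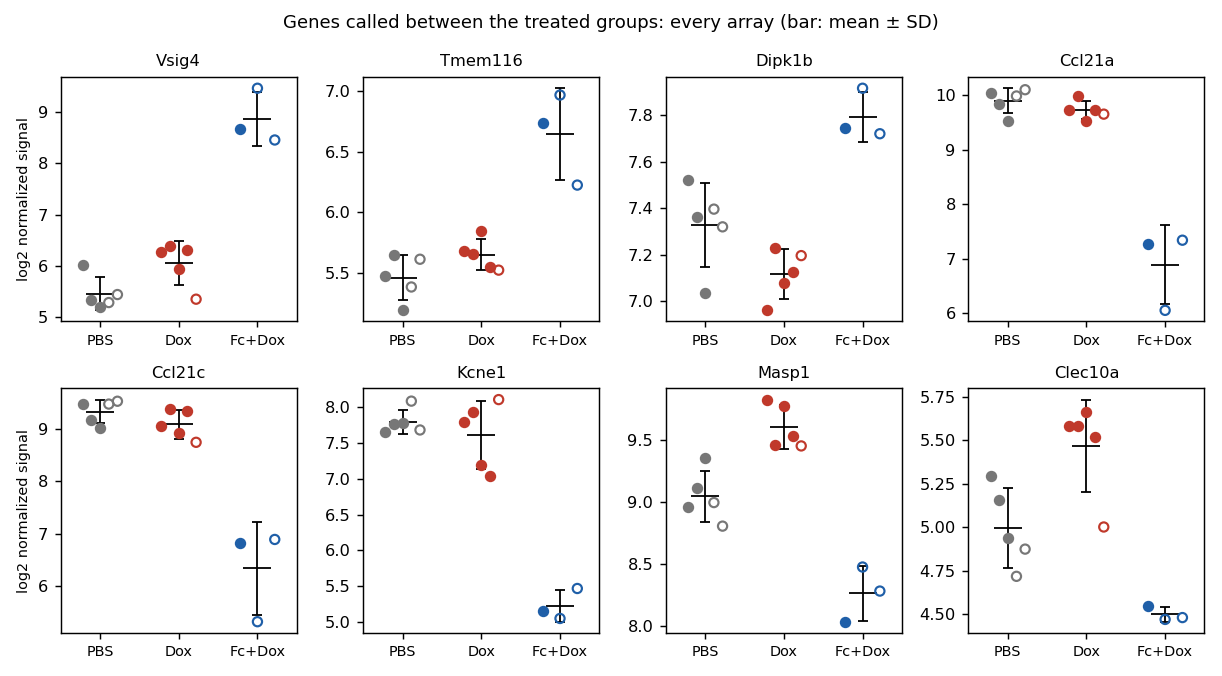
Each point is 1 heart, drawn from left to right by replicate number, with the log2 normalized signal on the vertical axis; bars are group means with SD for PBS (n = 5), doxorubicin (n = 5) and sAcvR2B-Fc plus doxorubicin (n = 3), and open points are the 5 low-signal arrays. In all 8 panels the pre-treated hearts lie outside the range of the other 10, and the panels have separate axes that do not start at 0.

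Vsig4 and Clec10a are both markers of resident macrophages. Of 22 such listed markers 19 were tested, with 1 called higher (Vsig4) and 1 called lower (Clec10a), 12 positive and 7 negative differences and a median of 0.16. Their summed linear signal was 5815 to 6752 after doxorubicin and 5775 to 9711 in the pre-treated hearts, Vsig4 included. Ms4a7, a membrane protein of macrophages, differed by -0.58 ± 0.21, and Cd300ld, an activating receptor of myeloid cells, by 0.86 ± 0.22, and neither was called. Whether the number of macrophages has a part in the differences of Vsig4 and Clec10a was not tested.

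Components of the targeted pathway itself showed no called change. Of 29 listed ligands and binding proteins 12 were tested, 5 with positive and 7 with negative differences and a median of -0.09. Inhba, the subunit that forms activin A, read 5.31, 5.54 and 5.33 in the pre-treated hearts and 5.46, 5.33, 4.96, 5.56 and 5.98 after doxorubicin alone. The groups overlapped, with a difference of -0.06 ± 0.21. Tgfb1, the main transforming growth factor beta gene, differed by 0.56 ± 0.28, the inhibin subunit gene Inha by 0.44 ± 0.19 and Bmp4 by -0.37 ± 0.15. The myostatin gene Mstn did not pass the detection filter and has no value here.

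The 10 tested receptors of 15 listed had 4 positive and 6 negative differences and a median of -0.26. Acvr2b, the receptor from which the decoy is made, read 8.30, 8.29 and 8.51 in the pre-treated hearts and 8.32, 8.07, 8.24, 8.12 and 8.48 after doxorubicin alone, and the groups overlapped with a difference of 0.12 ± 0.11. Acvr2a, the related type II receptor, differed by -0.28 ± 0.20 and was detected on 3 of 5 doxorubicin and 1 of 3 pre-treated arrays. The type II receptor gene Bmpr2 read 10.75, 10.68 and 10.71 in the pre-treated hearts and 11.02, 10.96, 11.17, 11.04 and 10.83 after doxorubicin alone. Its pre-treated arrays were just below the doxorubicin arrays, with a difference of -0.29 ± 0.09 (limma adjusted p = 0.347), while its other probes differed by 0.15 and 0.13. Eng, the endothelial co-receptor endoglin, read 9.91, 9.82 and 9.93 in the pre-treated hearts and 9.49, 9.48, 9.35, 9.61 and 9.72 after doxorubicin alone. It lay above the doxorubicin arrays by 0.36 ± 0.11 (limma adjusted p = 0.309). The type I receptor gene Bmpr1a differed by -0.73 ± 0.33, by -0.28 with the low-signal set as a block, and by -0.04 on its other probe.

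Of 8 tested SMADs and their partners 2 had positive and 6 negative differences. Smad1, which carries bone morphogenetic protein signals, read 8.31, 7.96 and 7.75 in the pre-treated hearts and 9.04, 8.98, 8.92, 8.56 and 8.37 after doxorubicin alone. The pre-treated arrays lay below all doxorubicin arrays, with a difference of -0.77 ± 0.21 (limma adjusted p = 0.291). The low-signal PBS arrays were also the lowest of their group (8.98, 9.14, 8.93, 8.47 and 8.28), and with the low-signal set as a block the difference was -0.51. Other Smad1 probes, detected on all 8 arrays, differed by -0.65 and -0.55, and a dim probe detected on 1 of 5 doxorubicin arrays by -0.16. Smad2 and Smad3, which carry activin signals, differed by -0.11 ± 0.13 and -0.02 ± 0.14 (-0.42 on the other Smad3 probe), and the corepressor gene Ski by 0.63 ± 0.32.

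The 16 tested SMAD target genes had 9 positive and 7 negative differences and a median of 0.046, and none was called. Id1, an inhibitor of helix-loop-helix factors induced by bone morphogenetic proteins, read 10.05, 9.98 and 10.14 in the pre-treated hearts and 9.27, 9.40, 9.70, 9.23 and 9.57 after doxorubicin alone. All pre-treated arrays were above the doxorubicin arrays, and the difference was 0.63 ± 0.16 (limma adjusted p = 0.223). Its relatives Id2 and Id3 differed by 0.68 ± 0.23 and 0.32 ± 0.17. The Id2 probe passed detection in all 3 pre-treated hearts but in 2 of 5 after doxorubicin alone. A second Id2 probe of similar mean level differed by 0.05, and it passed in 2 of 3 and 4 of 5. Pmepa1, which encodes a feedback inhibitor induced by transforming growth factor beta and activin, read 6.41, 6.53 and 6.48 in the pre-treated hearts and 6.84, 7.42, 6.49, 7.29 and 7.11 after doxorubicin alone. The groups overlapped, and the difference was -0.56 ± 0.17 (limma adjusted p = 0.336). Hey1, a Notch and SMAD target, differed by -0.44 ± 0.16, and the matricellular gene Ccn2 by -0.45 ± 0.29.

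**Figure D3:**
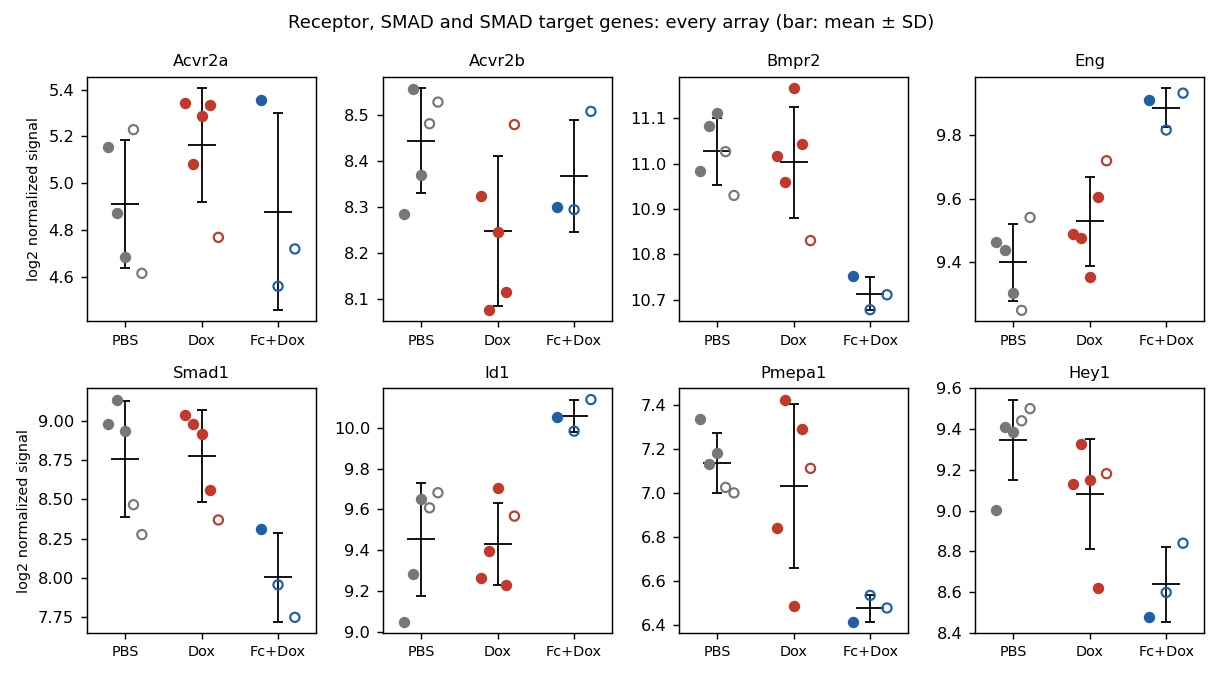
Each point is 1 heart, with the log2 normalized signal on the vertical axis; bars are group means with SD for PBS (n = 5), doxorubicin (n = 5) and sAcvR2B-Fc plus doxorubicin (n = 3), and open points are the 5 low-signal arrays. Smad1, Bmpr2, Eng and Id1 have pre-treated points outside the doxorubicin range, while Acvr2a, Acvr2b, Pmepa1 and Hey1 overlap.

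Genes of antigen presentation by MHC class II, used by dendritic cells, macrophages and B cells to show peptides to helper T cells, mostly had negative differences. Of 13 tested members 9 were negative and 4 positive, with a median of -0.43, and none was called. H2-Aa, a class II alpha chain, read 7.33, 6.07 and 6.17 in the pre-treated hearts and 8.48, 9.04, 8.12, 8.38 and 7.51 after doxorubicin alone. The pre-treated arrays lay below all doxorubicin arrays. The difference of -1.78 ± 0.42 was the largest negative one among the named genes that were not called (limma adjusted p = 0.208). Within the low-signal set it was -1.39 and within the other arrays -1.18. H2-DMb1, a chain of the peptide-loading chaperone, read 5.14, 5.30 and 5.03 in the pre-treated hearts and 5.76, 5.85, 5.74, 5.66 and 6.14 after doxorubicin alone, and its groups did not overlap (difference -0.68 ± 0.14, limma adjusted p = 0.139). H2-DMb1 was detected on 2 of 3 pre-treated arrays, and its difference was -0.22 without background correction. The beta chain genes H2-Ab1 and H2-Eb1 differed by -0.66 ± 0.26 and -0.65 ± 0.26, and Cd74, the invariant chain, by -0.43 ± 0.24. The list's median was -0.38 with the low-signal set as a block and -0.15 without background correction. It was -0.17 without doxorubicin replicates 2 and 5, an omission chosen after seeing the data. Under the series matrix names it was 0.15, so its direction turned. Against PBS the list's median was -0.46 for doxorubicin alone and -0.49 for the pre-treated hearts, and these comparisons share arrays.

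Class II promoters carry a Y box, an inverted CCAAT element bound by NF-Y. The windows of the 2 members whose groups did not overlap are shown with TGATTGG in capitals, H2-Aa on the minus strand at chr17:34287774-34288073 and H2-DMb1 on the plus strand at chr17:34152941-34153240 (RefSeq, GRCm38.p6).
H2-Aa: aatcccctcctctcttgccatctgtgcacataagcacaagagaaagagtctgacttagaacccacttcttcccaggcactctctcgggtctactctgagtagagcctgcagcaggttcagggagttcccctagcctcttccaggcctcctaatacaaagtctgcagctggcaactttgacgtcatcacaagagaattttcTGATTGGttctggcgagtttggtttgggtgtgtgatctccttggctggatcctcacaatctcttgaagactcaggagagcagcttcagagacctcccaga
H2-DMb1: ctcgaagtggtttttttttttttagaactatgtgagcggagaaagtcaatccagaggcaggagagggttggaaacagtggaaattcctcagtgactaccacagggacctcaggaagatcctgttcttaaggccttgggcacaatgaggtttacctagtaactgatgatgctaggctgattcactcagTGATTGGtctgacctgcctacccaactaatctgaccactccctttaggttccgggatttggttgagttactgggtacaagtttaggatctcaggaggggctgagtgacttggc
TGATTGG was searched on both strands of 300-base windows. Counted by gene, it is in a window of 5 of the 9 tested class II members that have one. Counted by window, it is in 7.82% of all 32851 windows, so the units of these shares differ. Both describe the letters only.

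Markers of the cells that carry class II were few. Of 14 listed dendritic cell and monocyte markers 5 were tested, 3 with positive and 2 with negative differences and a median of 0.018, with summed linear signals of 233 to 299 after doxorubicin and 199 to 236 in the pre-treated hearts. Of 12 listed B cell markers 2 were tested, with 72 to 133 and 90 to 100. Cd83, a surface protein of mature dendritic cells, read 5.79, 5.83 and 5.90 in the pre-treated hearts and 6.85, 6.60, 6.40, 6.89 and 6.61 after doxorubicin alone. The 3 pre-treated arrays were nearly equal and below all others, and the difference of -0.83 ± 0.16 missed the threshold (limma adjusted p = 0.0968). Against PBS the pre-treated hearts stood at -1.16 ± 0.16 (limma adjusted p = 0.00312), while doxorubicin alone stood at -0.33 ± 0.13. Vsir, an inhibitory receptor of myeloid cells and T cells, differed by -1.19 ± 0.36, with low values on the low-signal arrays of every group and a difference of -0.72 with that set as a block. The part of these cells in the class II differences was not tested.

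Interferon-induced genes mostly had negative differences, and none passed the test. Of 29 type I interferon-induced genes, 27 had a negative difference, with a median of -0.30. Their mean log2 level per array overlapped, at 8.31 to 9.20 after doxorubicin and 8.34 to 8.73 in the pre-treated hearts. The same list had a median of 0.88 for doxorubicin against PBS and of 0.65 for the pre-treated hearts against PBS, and these comparisons share arrays. The median was -0.28 with the low-signal set as a block, -0.17 without background correction and -0.25 under the series matrix names. Trim30a, an interferon-induced regulator of innate signalling, read 7.48, 7.14 and 6.56 in the pre-treated hearts and 8.34, 7.83, 8.53, 8.04 and 7.53 after doxorubicin alone. Its groups did not overlap (difference -0.99 ± 0.30, limma adjusted p = 0.317), and the difference was -0.65 with the low-signal set as a block. Oasl2, a member of the oligoadenylate synthetase family, read 9.90, 9.93 and 9.30 in the pre-treated hearts and 11.01, 9.85, 11.11, 10.57 and 10.19 after doxorubicin alone, with overlap and a difference of -0.84 ± 0.31, or -0.06 on its other probe. Adar, which edits double-stranded RNA, differed by -0.49 ± 0.21 (its other probes by -0.37, -0.24 and 0.19) and Ddx58, the RNA sensor RIG-I, by -0.41 ± 0.19. With the low-signal set as a block Adar stood at -0.28 and Ddx58 at -0.35.

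The 11 tested interferon-induced GTPases had 9 negative differences and a median of -0.19, with Ifi47 at -1.04 ± 0.37 and Gbp3 at -0.62 ± 0.27. With the low-signal set as a block Ifi47 stood at -0.77 and Gbp3 at -0.72. Of 16 class I and immunoproteasome genes 13 were negative, with a median of -0.145, and the class I heavy chain gene H2-K1 differed by -0.70 ± 0.33 (-0.32 with the low-signal set as a block, and 0.14 on its other probe) and the immunoproteasome subunit gene Psmb8 by -0.46 ± 0.22. Inflammatory chemokines had 7 positive and 9 negative differences of 16, and a median of -0.052. Ccl12, a monocyte attractant, differed by -1.20 ± 0.42, the interferon-induced T cell attractant Cxcl9 by -0.53 ± 0.20 and the macrophage chemokine Ccl6 by 0.61 ± 0.25. Ccl12 stood at -0.99 with the low-signal set as a block and at 0.074 under the series matrix names. None of these genes was called.

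**Figure D4:**
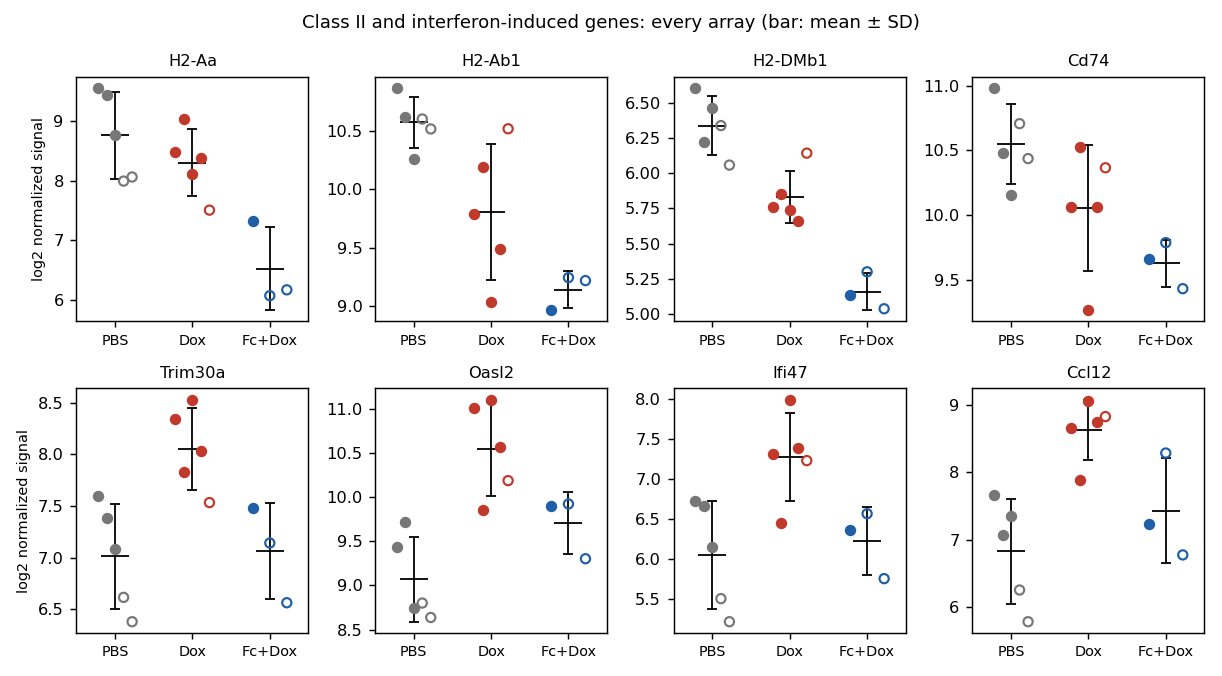
Each point is 1 heart, with the log2 normalized signal on the vertical axis; bars are group means with SD for PBS (n = 5), doxorubicin (n = 5) and sAcvR2B-Fc plus doxorubicin (n = 3), and open points are the 5 low-signal arrays. H2-Aa, H2-DMb1 and Trim30a have pre-treated points below all doxorubicin points, and for H2-Aa and Trim30a the open PBS points also lie below the filled ones.

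The DNA damage and neutrophil genes had differences on both sides of 0. Of 26 tested p53 targets 14 had positive and 12 negative differences, with a median of 0.044 and none called. Cdkn1a differed by 0.21 ± 0.36, and Sesn2, a stress-induced inhibitor of growth signalling, by 0.66 ± 0.26. S100a9, a calprotectin subunit abundant in neutrophils, read 7.66, 7.38 and 7.47 in the pre-treated hearts and 7.64, 6.90, 7.57, 8.53 and 7.61 after doxorubicin alone. The groups overlapped, with a difference of -0.15 ± 0.26, and S100a8 differed by -0.22 ± 0.31. The 6 tested neutrophil markers split into 3 positive and 3 negative.

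Glucocorticoid-responsive genes mostly had positive differences, 18 of 23, with a median of 0.19 (-0.20 under the series matrix names) and none called. For 4 of the 23 all pre-treated arrays were above the doxorubicin arrays, beside 4.18% of all genes. Sgk1, a kinase that controls ion transport, read 12.67, 12.90 and 12.95 in the pre-treated hearts and 12.37, 12.18, 12.29, 11.94 and 12.14 after doxorubicin alone. Its groups did not overlap, and its difference of 0.66 ± 0.12 missed the threshold (limma adjusted p = 0.0968). Nfkbia, the inhibitor of NF-kB, differed by 0.50 ± 0.15 (-0.63 on a second probe, detected on 1 of 3 pre-treated arrays) and Pik3r1, the regulatory subunit of phosphoinositide 3-kinase, by 0.50 ± 0.18. Among growth signalling genes, where 9 of 22 were positive with a median of -0.034, the growth factor gene Igf2 stood at 0.36 ± 0.11 and the kinase gene Mtor at 0.42 ± 0.13, both with pre-treated arrays above all doxorubicin arrays.

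Some lists of genes of heart muscle function were centred near 0. Oxidative phosphorylation subunits (44 tested) had a median of 0.019, calcium handling genes (16 tested) 0.018 and cardiomyocyte markers (13 tested) 0.0054, and none was called. With median scaling the medians of the first and the last turned, to -0.058 and -0.14. Pln, the inhibitor of the calcium pump, differed by -0.40 ± 0.18. Fatty acid genes had 20 positive differences of 28 and a median of 0.12, with the transcriptional coactivator gene Ppargc1a at 0.80 ± 0.32. Of 13 natriuretic and fetal genes 9 were negative, with a median of -0.22. That median was -0.17 with the low-signal set as a block and -0.033 without doxorubicin replicates 2 and 5. Nppa, atrial natriuretic peptide, read 12.89, 12.58 and 13.00 in the pre-treated hearts and 13.37, 14.25, 13.05, 13.25 and 13.28 after doxorubicin alone. The pre-treated arrays lay below all doxorubicin arrays, with a difference of -0.62 ± 0.22. Atrophy genes, by which ActRII ligands act on skeletal muscle, had 10 positive and 7 negative differences and a median of 0.033, with the muscle ubiquitin ligase gene Trim63 at -0.37 ± 0.18.

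**Figure D5:**
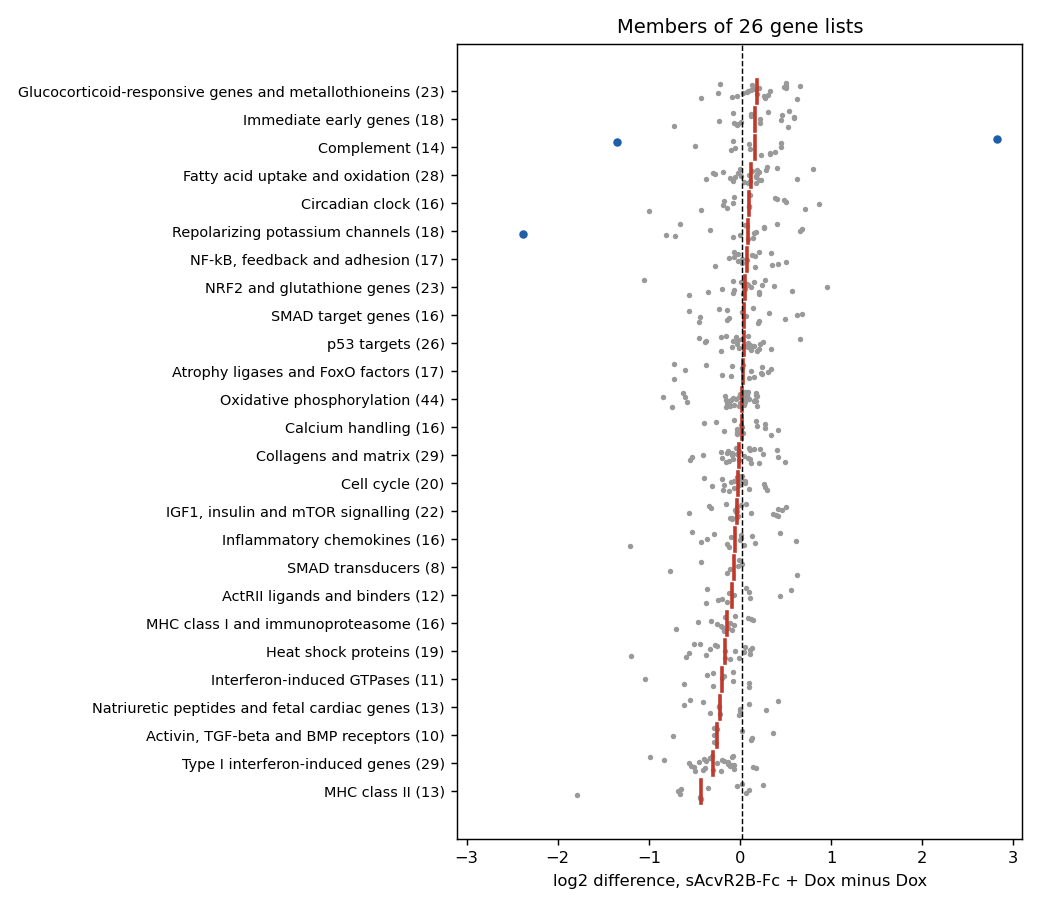
Each row is 1 of 26 gene lists with the number of tested members in brackets; points are the members' log2 differences between sAcvR2B-Fc plus doxorubicin and doxorubicin alone, blue points are called genes, red bars are list medians and the dashed line is the median of all genes, 0.018. List medians run from -0.43 for MHC class II to 0.19 for glucocorticoid-responsive genes, and the members of every list spread to both sides of 0.

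Under the series matrix names the direction of several other list medians turned as well. Those names place PBS replicate 3 in the pre-treated group and PBS replicate 4 in the doxorubicin group. They also place doxorubicin replicate 4 and pre-treated replicate 2 in the PBS group, so these medians compare other sets of arrays. The median became 0.032 for the receptors, 0.026 for class I and immunoproteasome genes, 0.043 for inflammatory chemokines, -0.12 for complement genes, -0.11 for p53 targets, 0.00026 for natriuretic and fetal genes, -0.026 for atrophy genes, -0.0077 for oxidative phosphorylation and -0.19 for resident macrophage markers.

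The largest differences among other genes not called were ranked under the naming rule given below, which requires groups that did not overlap. On the positive side Rab32, a small GTPase of lysosome-related organelles (0.88 ± 0.20), and Cd300ld came first. They were followed by Ggact, which breaks down crosslinks between proteins (0.86 ± 0.24), Hyal1, a lysosomal hyaluronidase (0.85 ± 0.35), and Smim24 (0.83 ± 0.21). Smim24 was detected on 2 of 5 doxorubicin arrays. The Rab32 signals were 7.15, 8.31 and 7.57 in the pre-treated hearts and 6.70, 6.87, 6.92, 6.78 and 6.74 after doxorubicin alone. Pre-treated replicate 2 was the highest, and replicate 1 was closest to the doxorubicin arrays. The actin regulator Cdc42ep4 (0.78 ± 0.18), the phospholipid synthesis gene Agpat1 (0.76 ± 0.15), the tetrahydrobiopterin synthesis gene Spr (0.76 ± 0.19) and the matrix protease gene Adamts1 (0.74 ± 0.28) also belonged to the 15 largest. A second Adamts1 probe, detected on 4 of 5 doxorubicin and 1 of 3 pre-treated arrays, differed by -0.29. A second Hyal1 probe, detected on 2 of 5 and 1 of 3, differed by -0.10.

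On the negative side, H2-Aa, Vsir, Mgl2 and Trim30a were followed by Ltc4s, which makes leukotriene C4. It read 5.91, 6.52 and 6.26 in the pre-treated hearts and 7.05, 6.58, 7.55, 7.36 and 7.12 after doxorubicin alone. Its groups did not overlap, and the difference was -0.90 ± 0.24 (limma adjusted p = 0.232). The Mediator subunit gene Med28 (-0.90 ± 0.29) and the RNA helicase gene Ddx21 (-0.85 ± 0.28) also lay low on the low-signal PBS arrays and stood at -0.54 and -0.53 with that set as a block, and a second Ddx21 probe differed by 0.14, while Tuft1 (-0.85 ± 0.17) and Apol10b (-0.83 ± 0.20) did not separate by that set. Slc27a3, an acyl-CoA synthetase gene, was detected on all 5 doxorubicin arrays and on none of the pre-treated ones, and was at least 1.51-fold lower, though not called (limma adjusted p = 0.227).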

How the data were processed

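The deposited non-normalized table gives 1 linear signal intensity per probe and array with a detection p-value beside it, per the file headers. Its arrays were assigned to samples through the sample names repeated in the labels. The other deposited table, the series matrix, gives intensity values after further processing by the authors, by steps not given in the sources used here, and was used only in alternatives. Each of its columns matched 1 array (Spearman correlation at least 0.99999, next best at most 0.904).

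Signals were background-corrected, quantile-normalized and log2-transformed with neqc of limma 3.58.1 in R 4.3.3 (offset 16). Detection p-values under 0.05 on at least 3 arrays were required, which kept 18693 of 45281 probes. The platform annotation, with symbols updated by gene identifier, names 1 gene for 15876 of them. Each gene took its passing probe with the highest mean, and 3828 genes had several. The 3 groups were fitted with lmFit and eBayes without covariates, and the contrast was tested two-sided with Benjamini-Hochberg adjustment. The comparison was also run on simulated data with 10410 genes and independent normal noise. It recovered 34% of 50 log2 changes of 0.5, 83% of 100 changes of 1 and 98% of 50 changes of 2. The simulation held no low-signal arrays, and its number of changed genes was set in advance. These shares therefore do not give the share of real changes found in these hearts. No 2 arrays were identical. The number of arrays limits the precision.

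Named genes are the called genes, the 15 largest differences in each direction among other genes with an unadjusted p under 0.05, groups that did not overlap and detection on every array of the higher group (clone and predicted names left out), up to 4 members with the smallest p of each list, the tested ligands, receptors, SMADs, SMAD targets and class II genes, and a few genes chosen for their role or earlier result. The members, the 26 pathway and 20 marker lists, and these rules were chosen with earlier results of these data known. A bound of at least N-fold sets the doxorubicin mean against the pre-treated mean of, per array, the lowest detected signal or the gene's own, whichever was higher.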

Additional observations from a re-analysis of the deposited data

Results flagged for a closer look

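For 9 of the 95 genes named in the text, 1 doxorubicin heart lay far from the other 4, by Dixon's test at the 95% level. Chance alone flags about 1 in 20 groups, and the pre-treated group of 3 was not tested. Doxorubicin replicate 5, which belongs to the low-signal arrays, was the lowest for 5 genes. It read 5.00 for the macrophage lectin gene Clec10a (the others 5.52 to 5.66), 6.38 for the inhibitory receptor gene Vsir (7.07 to 7.27), 8.00 for the class I gene H2-K1 (8.68 to 8.93), 5.18 for the complement gene C7 (5.69 to 5.82) and 8.03 for the platelet chemokine gene Pf4 (9.32 to 9.70). Doxorubicin replicate 2 was low for Ggact at 6.31 (7.07 to 7.30) and for the replication clamp gene Pcna at 5.06 (5.28 to 5.36), and high for Nppa at 14.25 (13.05 to 13.37). Doxorubicin replicate 4 was low for Hey1 at 8.62 (9.13 to 9.33). Without replicate 5, Clec10a was still called.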

How the results depend on the processing

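The count of 9 called genes (3 higher, 6 lower) stayed within 1.5 times under 9 of 13 other settings. With the 8 treated arrays alone, or with median scaling, it was 6, in each case 1 higher and 5 lower, and both settings lost Tmem116, Clec10a and Dipk1b. It was 0 under the series matrix names (324 genes at an unadjusted p under 0.05, limma) and 0 with the series matrix values under those names (349), where values and names changed together. With only the 7 arrays on whose group both tables concur it was 4, of which 3 (the Ccl21 copies) were among the 9. That fit holds 1 pre-treated array, which is assumed to vary like the other groups. Clec10a also lost its call with an offset of 50, without background correction and with trend and robust eBayes (limma adjusted p 0.115, 0.0538 and 0.0592). Tmem116 lost it without background correction, with array weights and with trend and robust eBayes (0.0538, 0.0551 and 0.0537), and Dipk1b with every passing probe tested and with trend and robust eBayes (0.0649 and 0.0752). The fits that leave out a single array called 6 to 11 genes. Called in all 13 such fits were Ccl21a, Ccl21c, LOC100041504, Kcne1, Masp1 and Vsig4, while Tmem116 was called in 7, Clec10a in 3 and Dipk1b in 2. Tmem116 was lost without doxorubicin replicate 1, 2, 4 or 5 or pre-treated replicate 1 or 2 (limma adjusted p up to 0.175), Clec10a without PBS replicate 2, 3 or 5, doxorubicin replicate 1, 2, 3 or 4 or any pre-treated replicate (up to 0.175), and Dipk1b without any array other than PBS replicates 1 and 3 (up to 0.274). Under the series matrix names Vsig4 reversed to -0.0552 on the values of the non-normalized table and to -0.230 on those of the series matrix, where Tmem116 reversed to -0.00288. The cause was not tested. Replicate numbers did not pair the mice: the deviations of same-numbered arrays correlated at 0.084, -0.22 and -0.23, and no pre-treated array correlated best with its own number. With the replicate number as a block 64 genes were called, including all 9. Added after seeing the data, the low-signal set as a block called 9 genes, 8 of them shared (all but Dipk1b), and leaving out doxorubicin replicates 2 and 5 called 7 and lost Tmem116 and Dipk1b. Of 225 named genes that were not called, 14 were called under at least 1 of these settings or single-array omissions. Of these only Mgl2, Cd83, Vegfc and Sgk1 were called under a setting other than the replicate block, whose numbers did not pair the mice. Signals near background limit several genes, among them Clec10a, Slc27a3, Kcne1, Pcna, H2-DMb1 and Smim24.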

Other observations

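Platelet and mast cell markers had negative differences for all 7 tested members (median -0.54, or -0.18 without background correction, none called), with Kit, the mast cell growth factor receptor, at -0.85 ± 0.30 and Pf4, a platelet chemokine, at -0.65 ± 0.41 (-0.17 with the low-signal set as a block). Their summed linear signal was 611 to 1151 after doxorubicin and 546 to 708 in the pre-treated hearts. Of 19 heat shock genes 14 were negative, with a median of -0.17 (-0.074 with the low-signal set as a block and 0.046 under the series matrix names), and the chaperone gene Hsp90aa1 differed by -1.19 ± 0.41, or -0.68 with that block, and Hsp90b1 by -0.37 ± 0.13. Of 18 immediate early genes 12 were positive, with a median of 0.17. That median was 0.087 with the low-signal set as a block, -0.45 within that set, 0.29 within the other arrays and 0.47 under the series matrix names, and the AP-1 subunit genes Junb and Jund differed by 0.59 ± 0.24 and 0.60 ± 0.22.

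Pcna, the sliding clamp of DNA replication, read 4.83, 4.90 and 4.87 in the pre-treated hearts and 5.29, 5.06, 5.30, 5.28 and 5.36 after doxorubicin alone. All pre-treated arrays were below the doxorubicin arrays (difference -0.39 ± 0.09, limma adjusted p = 0.208), but none of the 3 passed detection, nor did any PBS array, so the level was at least 1.11-fold lower. Gsta4, which detoxifies products of lipid peroxidation, read 10.91, 10.77 and 10.62 in the pre-treated hearts and 10.17, 9.82, 10.25, 10.39 and 10.31 after doxorubicin alone, with all pre-treated arrays above (difference 0.58 ± 0.14, limma adjusted p = 0.223). The fat cell genes Pparg and Cidea differed by 0.42 ± 0.15 and 0.40 ± 0.10, again with all pre-treated arrays above. Of 14 listed adipocyte markers 4 were tested, 3 with positive and 1 with a negative difference and a median of 0.41 (-0.09 under the series matrix names), while their summed linear signal was 24918 to 28307 after doxorubicin and 23140 to 25335 in the pre-treated hearts.

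Of the 18693 passing probes 2817 have no gene name here. Fitted with them, 12 probes were called, and 2 of these are unnamed. Their fitted differences were -1.85 ± 0.23 (limma adjusted p = 0.00297) and -1.64 ± 0.24 (limma adjusted p = 0.0145). The first read 6.02 to 7.30 after doxorubicin and 4.62 to 4.81 in the pre-treated hearts, and the second 5.80 to 7.00 and 4.50 to 5.07, so neither overlapped. No pre-treated array passed detection for the first, which was therefore at least 2.70-fold lower, and 1 of 3 did for the second.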
